A study of Mus musculus with 12 samples.

Results

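Aquaporins are membrane channels for water, and a subset of them, the aquaglyceroporins, also let glycerol through. In the fasted liver, glycerol released by adipose tissue enters the hepatocyte mainly through Aqp9, is phosphorylated by glycerol kinase, and is then oxidized to dihydroxyacetone phosphate, from which glucose can be made. That oxidation is carried out by cytosolic Gpd1, which uses NAD, and by mitochondrial Gpd2, which passes the electrons to the respiratory chain, and the pair together form the glycerol 3-phosphate shuttle. The genes described here are the aquaglyceroporins Aqp3, Aqp7 and Aqp9, the other aquaporins Aqp1, Aqp4, Aqp8 and Aqp11, and the dehydrogenases Gpd1 and Gpd2. They were taken by symbol from the count table and are 9 of its 56748 genes. They were picked with their counts in the 3 genotypes already known, so the differences between genotypes given for them below are a description and not an independent test.

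RNA-seq was performed on whole liver from mice fasted for 24 h, with 4 livers per genotype and 12 in all. The single knockout (SKO) lacks carnitine palmitoyltransferase 2 (Cpt2), an enzyme of mitochondrial fatty acid oxidation, in the liver. The double knockout (DKO) lacks Cpt2 and the stress-induced transcription factor Atf3 in the liver. The controls (WT) are labelled as floxed for Cpt1a, Cpt1b and Cpt2, whereas the study describes Atf3 and Cpt2 floxed controls for its RT-qPCR. Mice were of C57BL6 lines, and deletion was driven by Albumin-Cre, whose albumin promoter is active mainly in hepatocytes. The ages of these animals are not given in the sources used here.

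Total counts ranged from 14710304 to 20030055 per liver, so that the upper limit of 3 counts for a gene without reads corresponds to 0.150 to 0.204 CPM, the count scaled to library size, for counting error only. Cpt2 was at 198.5 to 250.4 CPM in WT livers, 108.8 to 158.5 in SKO livers and 99.9 to 125.5 in DKO livers. Atf3 had 17 to 39 counts in WT, 259 to 1056 in SKO and 164, 177, 265 and 5 in the DKO replicates 1 to 4, and these counts cover the whole gene, so they do not show the deleted exons alone. SKO replicate 3 and DKO replicate 4 had 18063 and 20855 Xist counts with at most 2 Y-linked counts, while the other 10 livers had at most 19 Xist counts. The study describes the mice of its RNA-seq as male and the labels give no sex, so results that rest on this pair of livers are given with and without them. DKO replicate 4 also stood apart in its hepatocyte marker sum of 92119 CPM, against 40660 to 49618 CPM in the other DKO livers and 72210 to 90316 CPM in WT. In such bulk RNA, fewer cells of a type and less RNA per cell cannot be told apart.

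Aqp3 and Aqp7, the pair with the largest ratios to WT, are neighbours on chromosome 4. The count table puts Aqp7 at 41033074 to 41048139 and Aqp3 at 41092722 to 41098183, both on the minus strand and 44582 bases apart, and these coordinates are the same in GRCm38. Their upstream sequences are shown because these genes moved most in the knockouts, and come from the RefSeq promoter table of GRCm38.p6, at chr4:41098184-41098433 for Aqp3 and at chr4:41048137-41048386, upstream of the first listed start, for Aqp7. Each is 250 bases on the minus strand, and capitals mark a match with at most 2 mismatches to the PPAR element, a direct repeat of AGGTCA with 1 base between the copies, searched on both strands.
Aqp3: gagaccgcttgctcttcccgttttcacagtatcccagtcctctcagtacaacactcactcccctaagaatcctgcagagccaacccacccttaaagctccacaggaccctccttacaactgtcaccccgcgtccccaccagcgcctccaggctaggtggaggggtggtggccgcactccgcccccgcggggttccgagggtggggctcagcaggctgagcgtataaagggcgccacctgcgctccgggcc
Aqp7: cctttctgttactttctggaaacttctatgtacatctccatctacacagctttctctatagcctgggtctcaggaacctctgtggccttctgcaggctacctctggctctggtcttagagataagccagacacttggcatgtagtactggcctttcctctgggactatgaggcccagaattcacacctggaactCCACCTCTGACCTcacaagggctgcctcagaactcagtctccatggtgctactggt

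The Aqp7 match began 56 bases before the first start, on the strand opposite to the gene. A window of 300 bases around a start held such a match in 3.86% of the 32851 promoters of the table, and in 2 of the 10 promoters searched for 7 of the 9 genes (all but Aqp4 and Gpd1), both of Aqp7. The windows of these Aqp7 starts overlap and share the match shown, and the second window holds a further match 101 bases before its start. An exact copy of the element was in 0.0396% of all promoters and in 0 of the 10. The cAMP response element TGACGTCA was in 1.79% of all promoters, and the C/EBP-ATF response element TGATGCAAT in 0.192%, with 0 of the 10 holding either. The AP-1 motif TGANTCA was in 7.81% of all promoters and in 1 of the 10, a promoter of Aqp9, 24 bases before its start. These are matches of letters and were not tested for binding.

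The other genes lie apart from this pair and from each other, at coordinates that differ from GRCm38 and were taken to be those of the following build, GRCm39. Aqp1 is at 55313417 to 55325540 on chromosome 6, Aqp8 at 123061514 to 123067227 and Aqp11 at 97373213 to 97387496 on chromosome 7, and Aqp9 at 71017941 to 71075964 on chromosome 9. Gpd1 is at 99615396 to 99622886 on chromosome 15 and Gpd2 at 57127647 to 57260731 on chromosome 2. Antisense genes with few reads overlap Gpd1 (Gm16537, 0 to 4 counts per liver), Gpd2 (A930012O16Rik, 7 to 32, and Gm13535, 0 to 2) and Aqp4 (Gm50048, 0 to 4).

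Aqp3, an aquaglyceroporin best known from skin and kidney, was barely detected in WT, with 1, 2, 0 and 1 counts in replicates 1 to 4. SKO livers had 61, 124, 180 and 55 counts, or 3.96, 6.34, 9.35 and 3.09 CPM. DKO livers had 22, 43, 38 and 7 counts, or 1.06, 2.63, 1.93 and 0.373 CPM. The 3 genotypes did not overlap, with every SKO liver above every DKO liver and every DKO liver above every WT liver. The summed counts of 420 in SKO against 4 in WT gave a ratio of 100.04 after scaling, with an exact 95% interval of 38.8 to 369 that covers counting error only. For DKO the summed 110 counts gave a ratio to WT of 25.0 (9.49 to 93.3) and a ratio to SKO of 0.250 (0.201 to 0.309). SKO replicate 3 was the highest SKO liver and DKO replicate 4 the lowest DKO liver, and without them the ranges still did not overlap, while the ratio of the mean DKO level to the mean SKO level went from 0.264 to 0.420.

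Aqp7, the aquaglyceroporin through which adipocytes release glycerol, had 4, 2, 0 and 4 counts in WT. In SKO it had 78, 27, 212 and 76 counts, or 5.06, 1.38, 11.0 and 4.27 CPM. In DKO it had 16, 29, 65 and 33 counts, or 0.772, 1.78, 3.30 and 1.76 CPM. Both knockouts lay above WT without overlap, but SKO and DKO overlapped, since SKO replicate 2 was lower than 3 of the 4 DKO livers. The ratio of summed counts to WT was 37.4 (20.1 to 78.7) in SKO and 13.0 (6.86 to 27.7) in DKO. These exact 95% intervals cover counting error only and not the spread between livers. SKO replicate 3 held 212 of the 393 SKO counts, and without it the ratio of the mean SKO level to the mean WT level was 25.8 instead of 39.2. Without SKO replicate 3 and DKO replicate 4 the ratio of the mean DKO level to the mean SKO level went from 0.350 to 0.546. The rank of livers was not that of Aqp3, with SKO replicate 2 second highest of the SKO livers for Aqp3 and lowest for Aqp7. Adipocyte markers were near the limit of detection, with 5 markers summing to 0.0650 to 0.605 CPM in WT livers, 0.312 to 0.674 CPM in SKO livers and 0 to 0.213 CPM in DKO livers, and with Retn and Lep at 3 counts or fewer in every liver.

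**Figure D1:**
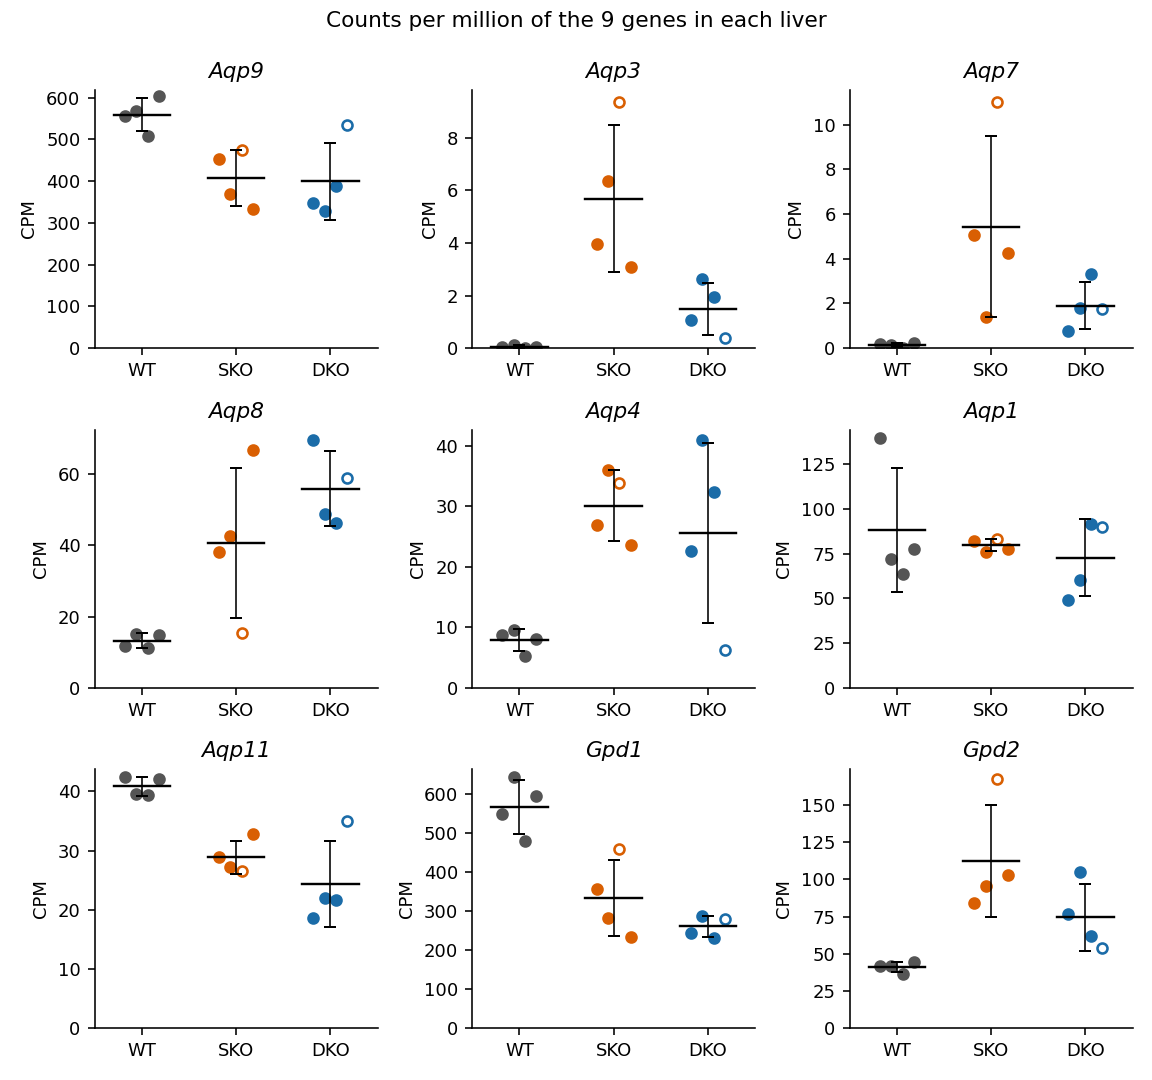
Level of each gene in CPM on a linear axis in each liver, with points for livers, open for SKO replicate 3 and DKO replicate 4, and a horizontal line and bar for the mean and SD of 4 livers. Aqp3 and Aqp7 are close to 0 in WT, Aqp9, Aqp11 and Gpd1 are highest in WT, and Aqp4 in DKO replicate 4 (6.28 CPM) lies within the WT range.

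Aqp9, the main glycerol channel of hepatocytes, was the most abundant aquaporin per length in all 12 livers. Its level was 555.1, 567.7, 509.3 and 604.2 CPM in WT and 454.1, 369.03, 474.9 and 334.2 CPM in SKO. DKO livers had 348.8, 329.2, 388.7 and 533.7 CPM. All SKO livers lay below all WT livers, and DKO overlapped WT only through replicate 4, without which DKO also lay wholly below. The WT mean was 559 ± 39.1 CPM, the SKO mean 408 ± 67.2 CPM and the DKO mean 400.1 ± 92.4 CPM (SD, n = 4 each). Per kilobase of gene length, Aqp9 made up 74.2 ± 4.93% of the summed level of the 7 aquaporins in WT, 58.6 ± 7.24% in SKO and 57.1 ± 3.65% in DKO. Within the 3 aquaglyceroporins, Aqp3 and Aqp7 together made up 0.0582 ± 0.0390% of the level in WT, but 4.71 ± 1.75% of it in SKO livers and 1.62 ± 0.944% in DKO livers, so Aqp9 remained the prevailing transcript of this group in each liver. Antisense genes overlap Aqp9 (Gm32511 and Gm47268, 6 to 59 and 5 to 35 counts per liver), whose reads cannot be told apart from its own without strand.

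Among the water channels, Aqp8, which hepatocytes carry on canalicular and intracellular membranes, was higher in both knockouts. It was at 11.6, 15.3, 11.1 and 14.8 CPM in WT, at 38.03, 42.6, 15.4 and 66.8 CPM in SKO and at 69.5, 48.8, 46.4 and 58.9 CPM in DKO. No knockout liver reached down into the WT range, although SKO replicate 3 at 15.4 CPM lay just above the highest WT liver, and SKO and DKO overlapped. As a share of the summed aquaporin level per length, Aqp8 was 4.59 ± 0.724% in WT, 15.6 ± 8.41% in SKO and 21.4 ± 5.14% in DKO. Aqp4, the water channel best known from astrocytes, was at 8.68, 9.62, 5.33 and 8.08 CPM in WT. It was at 26.9, 36.02, 33.8 and 23.5 CPM in SKO, and at 22.6, 40.9, 32.3 and 6.28 CPM in DKO. The SKO livers and DKO replicates 1 to 3 were thus all above WT, and DKO replicate 4 was not.

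Aqp11, an intracellular aquaporin of the endoplasmic reticulum, went the other way. WT livers had 42.4, 39.6, 39.3 and 42.1 CPM, a narrow range, against 28.9, 27.2, 26.5 and 32.7 CPM in SKO and 18.6, 22.05, 21.6 and 34.9 CPM in DKO. Both knockouts lay below WT without overlap, and DKO lay below SKO in every liver but replicate 4.

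Aqp1, the water channel of bile duct cells and of endothelium, did not separate the genotypes. It ranged from 63.4 to 139.7 CPM in WT, from 76.1 to 83.2 CPM in SKO and from 49.0 to 91.8 CPM in DKO. The highest WT liver, replicate 1, also had the highest endothelial marker sum of the 12 (366 CPM, against 171 to 298 CPM in the others). Over the 12 livers Aqp1 and the endothelial sum had a Pearson r of 0.753 on the log2 scale, given as a description because the points share genotype and library, and Aqp1 and the macrophage sum had an r of 0.633. The macrophage sum of this liver, 397 CPM, was the second highest of the 12. Bile duct markers summed to 27.9 to 33.3 CPM in WT, 7.41 to 14.5 CPM in SKO and 9.60 to 31.3 CPM in DKO, with Cftr at 3 counts or fewer in every liver. In SKO 2 of the 4 markers tested were lower than in WT, as were 15.4% of all genes tested. Aqp1 and this sum had an r of 0.362, and the cell source of Aqp1 was not tested. Correlations with marker sums were not particular to Aqp1, since Aqp9 and the bile duct sum had an r of 0.855, and Aqp7 and the stellate cell sum 0.826. The other aquaporins of the mouse (Mip, Aqp2, Aqp5, Aqp6 and Aqp12) had at most 3 counts in any liver.

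Gpd1 and Gpd2 moved in opposite directions. Gpd1 was at 547.8, 641.5, 478.3 and 592.9 CPM in WT, at 356.6, 281.1, 459.0 and 233.3 CPM in SKO and at 243.7, 287.1, 231.4 and 279.2 CPM in DKO. Every knockout liver was below every WT liver, and SKO replicate 3 came closest. Gpd2 was at 41.5, 41.4, 36.03 and 44.1 CPM in WT, at 84.2, 95.5, 167.6 and 102.7 CPM in SKO and at 77.0, 105.2, 61.8 and 53.6 CPM in DKO. All knockout livers exceeded all WT livers for Gpd2, and SKO replicate 3 was again the highest of its group. Within the SKO group, the same liver was thus the highest for both genes. The ratio of Gpd1 to Gpd2, both per length, was 29.2, 34.3, 29.4 and 29.8 in WT, 9.37, 6.51, 6.06 and 5.02 in SKO and 7.00, 6.03, 8.29 and 11.5 in DKO. The cytosolic transcript was the more abundant of the pair per length in every liver. Mean ratios were 30.7 ± 2.43, 6.74 ± 1.86 and 8.21 ± 2.40 (SD, n = 4 each), and the highest knockout ratio was below the lowest WT ratio.

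**Figure D2:**
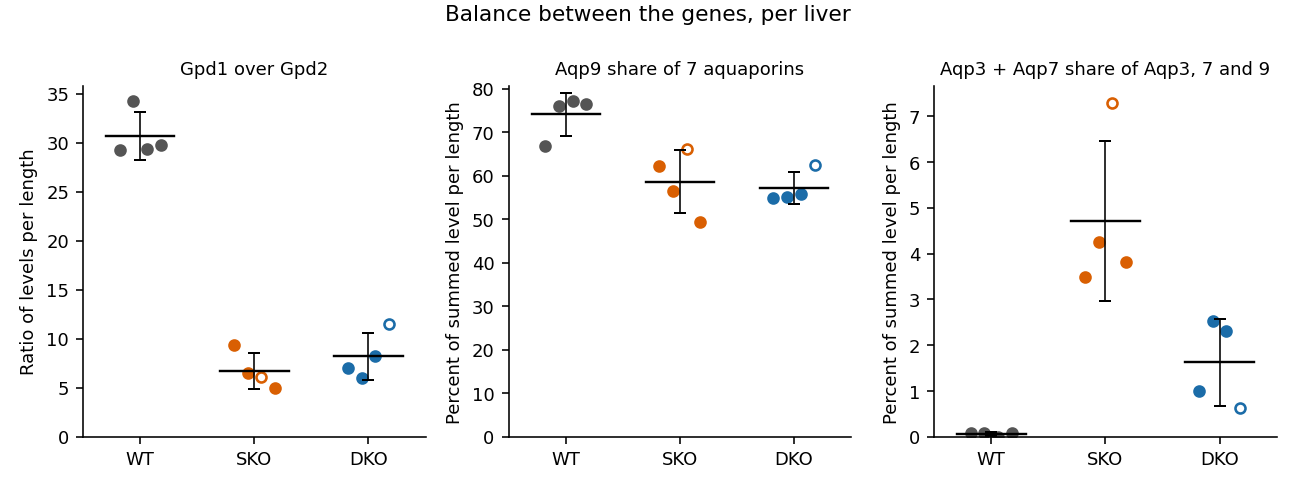
Ratio of Gpd1 to Gpd2, Aqp9 as a percent of the 7 aquaporins, and Aqp3 with Aqp7 as a percent of the 3 aquaglyceroporins, all from levels per length on linear axes, with points for livers (open for SKO replicate 3 and DKO replicate 4) and the mean ± SD of 4. The ratio falls from 30.7 in WT to 6.74 in SKO and 8.21 in DKO with no overlap between WT and the knockouts.

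Levels of different genes were compared as CPM per kilobase of gene length (mean ± SD, n = 4 livers). In WT the order was Gpd1 (191 ± 23.4), Aqp9 (135 ± 9.45), Aqp1 (33.6 ± 13.3), Aqp8 (8.36 ± 1.35), Gpd2 (6.22 ± 0.516), Aqp11 (4.34 ± 0.170) and Aqp4 (1.27 ± 0.296). Aqp7 (0.0490 ± 0.0358) and Aqp3 (0.0319 ± 0.0284) came last in WT and overlapped each other, while all other neighbours in that order had separate ranges. In SKO, Gpd1 (112 ± 33.2) and Aqp9 (98.5 ± 16.2) overlapped, as did Aqp1 (30.3 ± 1.28) with Aqp8 (25.8 ± 13.3) and Aqp8 with Gpd2 (17.2 ± 5.73). Aqp3 (3.11 ± 1.53) then lay among Aqp4 (4.82 ± 0.935), Aqp11 (3.06 ± 0.296) and Aqp7 (1.92 ± 1.43), and none of these 4 differed from its neighbour in the order beyond their spread. In DKO, Aqp9 (96.6 ± 22.3) and Gpd1 (87.9 ± 9.11) overlapped, as did Aqp8 (35.4 ± 6.68) and Aqp1 (27.7 ± 8.17). The summed level of the 7 aquaporins per length was 183 ± 17.7 in WT, 168 ± 8.70 in SKO and 168 ± 27.2 in DKO, and these ranges overlapped.

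Fold changes came from edgeR's quasi-likelihood test on each pair of genotypes, with Benjamini-Hochberg adjustment over all genes tested and a threshold of 0.05. Between SKO and WT, 8 of the 9 genes passed, 5 higher (Aqp3, Aqp4, Aqp7, Aqp8 and Gpd2) and 3 lower (Aqp9, Aqp11 and Gpd1), where 32.1% of 14261 genes tested did, 16.7% higher and 15.4% lower. The same 8 genes had ranges without overlap, against 33.2% of all genes, 17.2% higher and 16.1% lower. Since the genes were picked on this contrast, nothing is read from these counts. The log2 fold changes ± SE were 1.46 ± 0.20 for Gpd2, 1.62 ± 0.34 for Aqp8 and 1.92 ± 0.20 for Aqp4 among the higher genes. Among the lower ones they were -0.77 ± 0.20 for Gpd1, -0.51 ± 0.11 for Aqp11 and -0.46 ± 0.14 for Aqp9, and Aqp1 had -0.15 ± 0.22. For Aqp3 and Aqp7 the fitted values of 6.44 ± 0.58 and 5.16 ± 0.73 depend on the prior count because WT was near 0, and both passed the low-count filter only through the SKO livers. The median of the 9 was 1.46, the value of Gpd2, and would be lower without Aqp3 and Aqp7. Over all genes the median was 0.03, and nothing is read from this comparison either, as the genes were picked on this contrast. For Aqp9 (edgeR adjusted p = 0.0305) the call was lost in 8 of 14 alternatives, with adjusted p from 0.00632 to 0.0850, among them those without SKO replicate 2 or 4 and without WT replicate 1, 2 or 4.

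Between DKO and WT, 6 of the 8 genes tested passed, 4 higher (Aqp4, Aqp7, Aqp8 and Gpd2) and 2 lower (Aqp11 and Gpd1), where 10.5% of 14448 genes did, 6.06% higher and 4.39% lower. Ranges did not overlap for 5 of the 8, 3 higher and 2 lower, and for Aqp3 as well. Among all genes 16.8% had no overlap, 7.72% higher and 9.05% lower, and again nothing is read from these counts. Aqp3 was not tested because DKO replicate 4, with 7 counts, left it below the filter, and without a filter its fitted log2 fold change was 4.52 ± 0.75. The values were 3.67 ± 0.65 for Aqp7, which passed the filter only through the DKO livers, 2.10 ± 0.17 for Aqp8 and 1.69 ± 0.46 for Aqp4. They were 0.88 ± 0.19 for Gpd2, -1.11 ± 0.14 for Gpd1 and -0.74 ± 0.19 for Aqp11, while Aqp9 at -0.47 ± 0.18 and Aqp1 at -0.27 ± 0.29 did not pass. The median of the 8 was 0.31, which lies between the values of Gpd2 and Aqp1 and would be lower without Aqp7. Over all genes the median was 0.03, and nothing is read from this comparison, as the genes were picked with these values known. Aqp8 and Gpd1 kept their calls in all 14 alternatives, whereas Aqp4, Aqp11 and Gpd2 were each called in 6 of 14, being lost with a replicate block and when any 1 liver was left out other than DKO replicate 4. The count of genes called was 3 without DKO replicate 1, 2 or 3 or WT replicate 1 or 2, 4 without WT replicate 3 or 4, and 8 without DKO replicate 4, where Aqp9 passed with an edgeR adjusted p of 0.00131. The count over all genes moved the same way, from 1510 of 14448 to 5253 of 14634 without DKO replicate 4 and to 244 to 719 genes without any 1 of the other livers. Aqp3 was tested, and is included in these counts, where DKO replicate 4 or a WT replicate was left out. Aqp7 lost its call without WT replicate 2, at an edgeR adjusted p of 0.0557.

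Between DKO and SKO, which asks what the loss of Atf3 adds to that of Cpt2, 0 of the 9 genes passed in edgeR, where 0.0209% of 14363 genes did (0.00696% higher and 0.0139% lower), and 3 of the 9 had an unadjusted p under 0.05, as did 6.49% of all genes. These were Aqp3 (-1.93 ± 0.53, adjusted p = 0.458), Aqp7 (-1.49 ± 0.59, adjusted p = 0.717) and Gpd2 (-0.59 ± 0.26, adjusted p = 0.756), each with a negative fitted value in DKO against SKO. Without SKO replicate 3 and DKO replicate 4 the values were -1.26 for Aqp3, -0.85 for Aqp7 and -0.21 for Gpd2, and of these only Aqp3 still had an unadjusted p under 0.05 in edgeR. In the same setting Aqp11 moved to -0.50, with an unadjusted edgeR p of 0.00837 and an adjusted p of 0.444, and Aqp8 moved to 0.17. DESeq2 called 1 of the 9, Aqp3, with an adjusted p of 0.0322, and the range of adjusted p for Aqp3 over its 15 alternatives was 0.0322 to 0.906. With every liver kept, Aqp3 was the only 1 of the 9 with ranges that did not overlap, which 3.94% of all genes had, 2.08% higher and 1.86% lower. Without SKO replicate 3 and DKO replicate 4, Aqp11 also lay lower in DKO without overlap, at a ratio of means of 0.700. The share over all genes is not given for that setting. Aqp8 at 0.49 ± 0.35, Gpd1 at -0.33 ± 0.22, Aqp4 at -0.23 ± 0.42, Aqp11 at -0.22 ± 0.21, Aqp1 at -0.10 ± 0.21 and Aqp9 at -0.00 ± 0.22 did not pass.

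**Figure D3:**
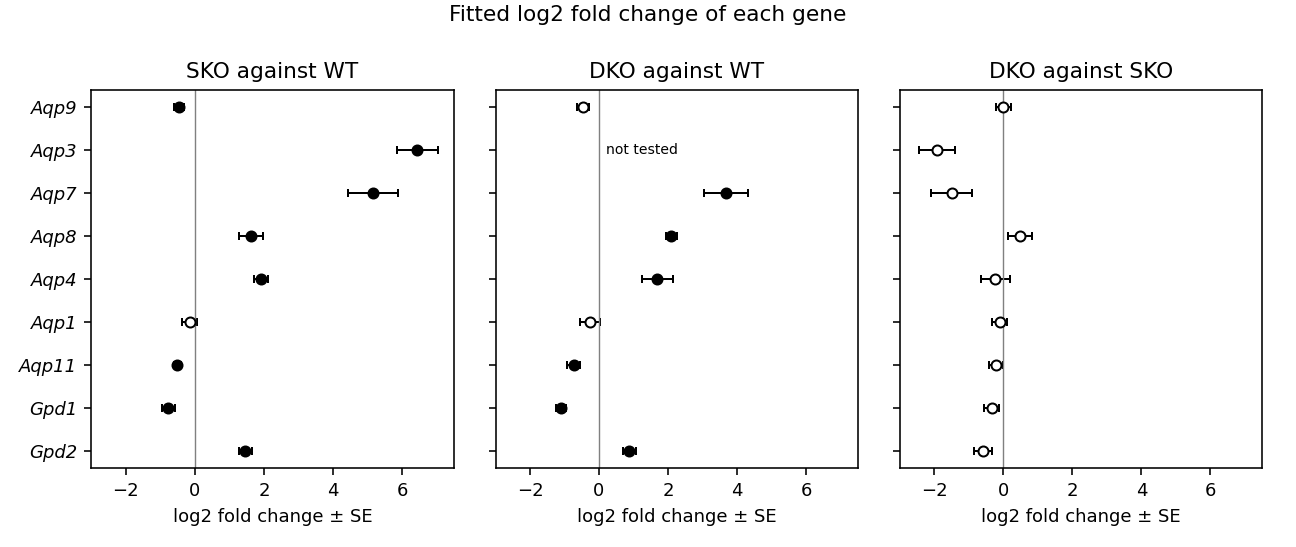
Fitted log2 fold change ± SE of each gene in the 3 comparisons, from edgeR with 4 livers a group, filled where the adjusted p is under 0.05. Filled points number 8 in SKO against WT, 6 in DKO against WT, where Aqp3 was not tested, and 0 in DKO against SKO.

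Around Aqp7 and Aqp3, 11 other genes are listed within 100000 bases of the pair, a window chosen after the values were seen, and 6 of them were tested. In SKO against WT, Nfx1 at a log2 fold change of 0.65, Ubap2 at 0.58 and Nol6 at 0.44 were higher, and 0 were lower in edgeR, where 16.7% of all genes tested were higher and 15.4% lower. The 6 ranged from -0.29 to 0.65, and nothing is read from their distance to the fitted values of Aqp3 and Aqp7, which were picked on this contrast and depend on the prior count.

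**Figure D4:**
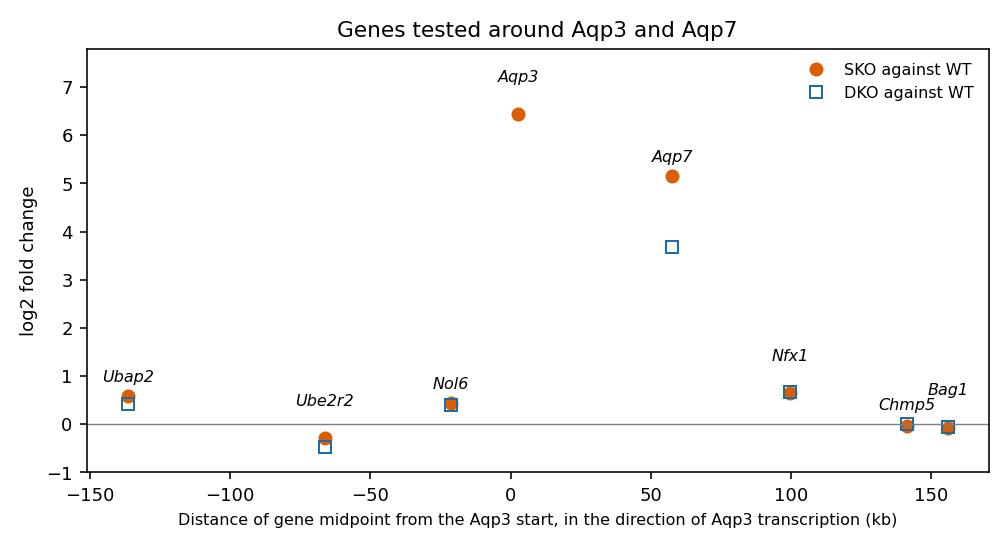
Log2 fold change of the genes tested around Aqp3 and Aqp7 by distance of the gene's midpoint from the Aqp3 start in kilobases, with circles for SKO against WT and open squares for DKO against WT. Aqp3 (6.44, SKO only) and Aqp7 (5.16 and 3.67) are shown with the 6 neighbours, which lie between -0.29 and 0.65 in SKO, and the fitted values of the pair depend on the prior count.

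Genes that share the path of glycerol with these 9 were taken from lists for glycerol use and release, acyltransferases that consume glycerol 3-phosphate, the steps from triose phosphate to glucose, and the malate-aspartate shuttle, the other route by which cytosolic NADH is reoxidized. With the 5 remaining aquaporins these lists hold 32 genes, of which 25 were tested between SKO and WT. The values below are log2 fold changes ± SE. In edgeR 8 were higher and 7 lower, and in DKO against WT 2 were higher and 4 lower of 25, beside 32.1% and 10.5% called among all genes. In DKO against SKO 0 of 26 passed in either edgeR or DESeq2, with 4 at an unadjusted p under 0.05, which 6.49% of all genes had in that comparison.

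Glycerol kinase (Gk), which acts directly after Aqp9, was 1.08 ± 0.14 higher on the log2 scale in SKO than in WT, at 416 ± 38.2 against 196 ± 28.4 CPM, whereas Aqp9 and Gpd1 were lower in SKO. In DKO it was at 308 ± 86.0 CPM, with a log2 fold change against WT of 0.66 ± 0.19 (edgeR adjusted p = 0.0565). Pnpla2, the lipase that starts the release of fatty acids and glycerol from stored triglyceride, rose by 1.69 ± 0.16 in SKO and by 0.89 ± 0.24 in DKO. Pgp, which can split glycerol 3-phosphate to glycerol, rose in SKO (0.71 ± 0.15). The lipolysis genes Mgll (0.68 ± 0.15) and Abhd5 (0.45 ± 0.12) also rose in SKO, and they are named because they complete that count. Tkfc, which phosphorylates dihydroxyacetone and glyceraldehyde, fell in SKO (-1.33 ± 0.15) and in DKO (-1.22 ± 0.20). Gpd1l, a cytosolic relative of Gpd1, fell in SKO (-0.88 ± 0.13) and in DKO (-0.96 ± 0.19), in the direction of Gpd1. In all, 5 of the 9 tested genes of glycerol use and release were higher and 2 lower in SKO, with a median of 0.68. Over all genes tested, 16.7% were higher and 15.4% lower, with a median of 0.03. The lists were chosen with earlier results of these data known, so nothing is read from these counts.

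Among the acyltransferases, Gpat3 rose in SKO (1.83 ± 0.15) and in DKO (1.53 ± 0.19), and mitochondrial Gpam rose in SKO (0.69 ± 0.13), while Gpat2 and Gpat4 did not pass. Of the 5 genes between triose phosphate and glucose, 3 fell in SKO, where 15.4% of all genes tested were lower. They were Fbp1 (-1.68 ± 0.18), G6pc (-1.50 ± 0.32) and the glucose 6-phosphate transporter Slc37a4 (-1.13 ± 0.14). In DKO only Slc37a4 passed (-1.06 ± 0.17), with Fbp1 at -1.18 ± 0.34 and G6pc at -0.91 ± 0.29. In the malate-aspartate shuttle, cytosolic Mdh1 (-0.66 ± 0.12) and the aspartate-glutamate carrier Slc25a13 (-0.56 ± 0.12) fell and mitochondrial Mdh2 rose (0.56 ± 0.15) in SKO, the last named to complete the count. Slc25a13 was the gene of this shuttle that passed in DKO (-0.60 ± 0.16). Without DKO replicate 4 the count of list genes called between DKO and WT was 17 rather than 6, and without DKO replicate 1, 2 or 3 or WT replicate 1, 2 or 4 it was 3, beside the like moves over all genes given above (5253 of 14634 genes without DKO replicate 4).

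**Figure D5:**
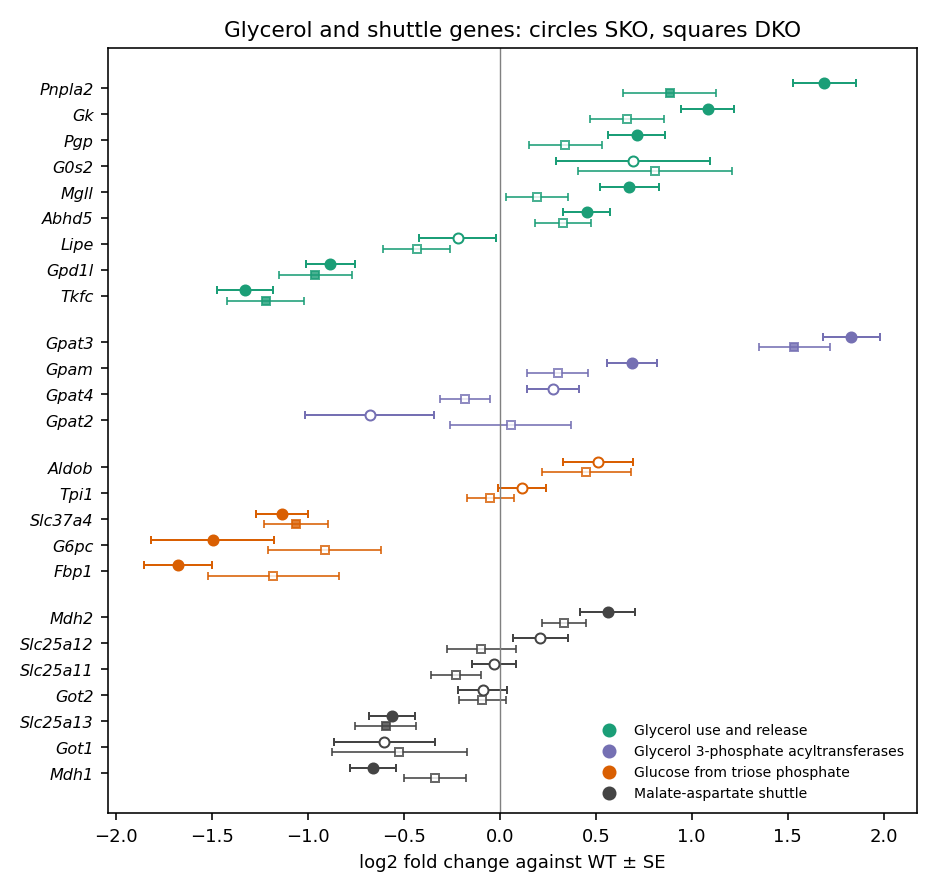
Log2 fold change against WT ± SE of the 25 list genes tested, coloured by list, with circles for SKO, squares for DKO and filled symbols for an adjusted p under 0.05 in edgeR. In SKO 8 are higher and 7 lower, led by Gpat3 (1.83) and Fbp1 (-1.68).

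The livers also differed in hepatocyte markers, whose sum was 39472 to 69340 CPM in SKO and 40660 to 92119 CPM in DKO, with 3 of 7 markers lower in SKO than in WT and 1 of 7 in DKO. Stellate markers summed to 179 to 217 CPM in WT, 249 to 348 CPM in SKO and 229 to 291 CPM in DKO, with 1 of 6 higher in SKO. Macrophage markers summed to 196 to 397, 193 to 463 and 117 to 390 CPM, with 1 of 8 higher in SKO and 1 of 8 lower in DKO, and endothelial markers passed in neither. Erythroid markers summed to 113 to 249 CPM in WT livers, 156 to 533 CPM in SKO livers and 127 to 713 CPM in DKO livers, with 2 of 5 higher and 1 lower in SKO and 1 of 5 lower in DKO. Among all genes tested, 16.7% were higher and 15.4% lower in SKO than in WT, with 6.06% and 4.39% in DKO. Nothing is read from these counts of markers. The part of these cell types in the differences of the aquaporins and dehydrogenases was not tested.

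Over the 12 livers, the genes most like those described here in log2 CPM were sought among 13072 genes, and the correlations are descriptions, since livers share genotype and depth. Aqp3 was closest to Crat, which encodes carnitine acetyltransferase (r = 0.985), and then to the acyl-CoA thioesterase Acot1 (0.979). Aqp7 was closest to the carbonic anhydrase Car2 (0.972), with the fatty acid transporter Cd36 (0.944) also among its closest 3, and Aqp4 to Mafk (0.977). Gpd2 was closest to Tdrp (0.967) and to Pex19, a peroxisome assembly factor (0.963). Aqp9 was closest to Rasa3 (0.973) and Aqp11 to Narf (0.941). Gpd1 was closest to the pseudogene Ak3l2-ps (0.942), and Aqp1 to Cd84 (0.948), a receptor of immune cells. Within the 9, Aqp3 and Aqp4 had an r of 0.917, which was 0.920 after each genotype's mean was removed. Aqp3 and Aqp7 had an r of 0.898, but 0.295 within genotypes, and the latter includes the WT livers with 0 to 4 counts of either gene. Gpd1 and Aqp8 ran opposite, at -0.932 over all and -0.695 within genotypes.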

How the data were processed

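Liver RNA was sequenced from 4 WT, 4 SKO and 4 DKO mice, grouped by the genotype that each label gives. The authors deposited raw counts per Ensembl gene, and FPKM values that were used only to check levels. The deposited tables of the authors' own comparisons were not used. HISAT2 and GRCm38 (mm10) are named in the submitters' processing notes, but only 2.76% of the gene IDs shared with GENCODE M21 had the same coordinates as in GRCm38, so the table's coordinates are of another build, taken to be GRCm39, which was not used here. The counting program and strand setting are not given in the sources used here. Nothing says that livers of a group were other than separate animals, but p-values measure only the spread between these samples. With 4 livers a group and the totals given above, genes with under about 10 counts a liver were filtered out and levels near 3 counts are imprecise.

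Counts were compared for each pair of genotypes with edgeR 4.0.16 in R 4.3.3 (TMM, filterByExpr, quasi-likelihood test, two-sided, Benjamini-Hochberg adjustment over all genes tested). DESeq2 1.42.0, RLE scaling, other filters, a replicate block, a fit of all 12 livers and omission of each liver, or of both livers with Xist counts, were tried as alternatives. Levels are CPM scaled by TMM over 12 livers, divided by the table's gene length where genes are compared. Correlations between genes used log2 CPM with a prior count of 2, and genes with a mean CPM of at least 1, and those with marker sums used log2 of CPM plus 0.1. The genes, lists and tests were chosen with earlier results of these data known. All 9 genes are named, with list genes that passed, up to the 12 of smallest p in a comparison, and up to 3 genes most like each, except that the gene most like Aqp8 is not reported here.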

Additional observations from a re-analysis of the deposited data

Results flagged for a closer look

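In WT replicate 2 the ratio of Gpd1 to Gpd2 per length was 34.3, far from the other WT livers at 29.2 to 29.8. This was the only 1 of 30 sets of 4 livers, over the 9 genes and that ratio in 3 genotypes, with a liver past Dixon's 95% critical value, and chance passes about 1 in 20 sets. On log2 CPM, 0 of the 27 sets of the 9 genes had such a liver.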

How the results depend on the processing

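Of the log2 fold changes of the 9 genes recomputed under alternatives, 326 kept their direction and side of the threshold, 33 lost a call, 2 gained one and 11 changed sign without a call. The sign changes were Aqp9 in DKO against SKO (0.0068 with CPM of at least 1 in 4 livers, and -0.192 to 0.0918 with 1 liver left out), Aqp4 there (0.15 without the livers with Xist counts, -0.536 to 0.0888 with 1 left out) and Aqp1 with 1 liver left out (-0.29 to 0.15 in SKO and -0.400 to 0.0336 in DKO against WT, -0.243 to 0.0462 in DKO against SKO). Between DKO and WT, DESeq2 called 10 list genes and 2635 genes in all, and without the livers with Xist counts these were 17 and 5253. In DKO against SKO, all genes called were 97 by DESeq2, 35 without a filter and 21 without the livers with Xist counts, and DESeq2 called 1 of the 9. With 1 liver left out, the 9 had 3 to 8 calls, the lists 3 to 17 and all genes 244 to 5253 in DKO against WT, and all genes 0 to 15 in DKO against SKO. No label used here pairs livers beyond a replicate number. Same-number correlations of their deviations ran from -0.36 to 0.11, and a correlation between different numbers reached 0.42. With 4 livers a group these values cannot decide whether livers were paired. A replicate block gave 3 of the 8 tested and 691 genes in DKO against WT and 0 in DKO against SKO. The causes were not tested. Depth limits Aqp3 and Aqp7, which had 4 and 10 counts over the WT livers.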
